A study of Mus musculus with 20 samples.

Results

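Skin and muscle of the unirradiated hindlimb were compared gene by gene and transcript by transcript in 6 of the 20 RNA libraries of a radiotherapy study, 3 from skin and 3 from muscle. The animals were wild-type C57BL/6J mice that received a sham exposure (0 Gy) instead of the 35 Gy of electrons given to the irradiated groups, and both tissues came from the left hindlimb at day 70. The libraries were chosen by their records, which call them not irradiated. Skin was labelled batch 1 and muscle batch 2, so tissue and batch cannot be told apart in anything that follows. The labels do not say whether a number marks 1 mouse in both tissues or whether the 3 libraries of a tissue come from 3 mice, so each p-value speaks only of the spread among libraries. The records and the names of the data deposited under them disagree in places. The data of skin libraries 1 and 2 and muscle library 1 are named as shams, while those of skin library 3 and muscle libraries 2 and 3 carry names of FLASH libraries (FLASH is ultra-high dose rate irradiation). The comparison was therefore repeated with the libraries that are shams by data name, and with the 3 libraries for which record and name match. The defining markers of each tissue were found where the labels place them, keratins in skin and sarcomere genes in muscle.

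Skin is a layered barrier. Keratinocytes of the epidermis leave a basement membrane, exchange one set of keratin filaments for another, join through desmosomes and die into a cornified layer sealed with lipids, while follicles build hair from their own keratins and the dermis below supplies collagen. Skeletal muscle is made of fused fibres whose sarcomeres slide actin past myosin, triggered by calcium released from an internal store and paid for by creatine phosphate, glycogen and mitochondria. Fast and slow fibres use different genes for the same sarcomere parts. Both organs hold vessels, nerves, connective tissue and immune cells, and in whole-tissue RNA fewer cells of a type and less RNA per cell cannot be told apart.

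Skin libraries held 30624215, 33250762 and 29327697 estimated counts and muscle libraries 11973061, 12245546 and 11121192. In skin 4.25 to 12.9% of all counts fell on just 10 genes, and in muscle 60.0 to 65.1%. Fold changes are therefore given on a scale set by TMM, a method that lines libraries up on the bulk of their genes, and levels as scaled TPM. Scaled TPM is the deposited TPM, a length-corrected level, times 1 factor per library that lines the libraries up as TMM does. The factors were 0.936 to 1.12 in skin and 7.64 to 8.45 in muscle. The log2 values come from counts without length correction. They can therefore differ from the ratio of the levels where the tissues use transcripts of different length. A log2 value above 0 means higher in skin. The figure after ± is an approximate standard error, the absolute log2 value divided by the square root of the test's F statistic. For a gene without counts in a tissue it does not measure how far the fold could reach. A gene is called at a Benjamini-Hochberg adjusted p under 0.05 in edgeR's quasi-likelihood test over all 17809 genes tested.

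Of those genes, 10444 were called (58.6%), 5774 higher in skin (32.4%) and 4670 higher in muscle (26.2%). The libraries of the groups did not overlap for 11750 genes (66.0%). The median gene stood at log2 0.28. With library totals alone as the scale that median moved to 2.74, and 16148 genes were called, 15738 of them higher in skin, so every direction below is relative to the bulk of genes. Of the 98 called genes higher in muscle that the naming rule picked, 25 turned to higher in skin on library totals, and 38 and 37 with limma on log2(TPM + 0.1) and log2(TPM + 1). Restricting the test to the 3 libraries for which record and name match, 2 of skin and 1 of muscle, left 1380 calls. Where genes passed the filter on low counts through 1 tissue alone they had to differ, so counts of called members describe those genes and support nothing further.

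**Figure D1:**
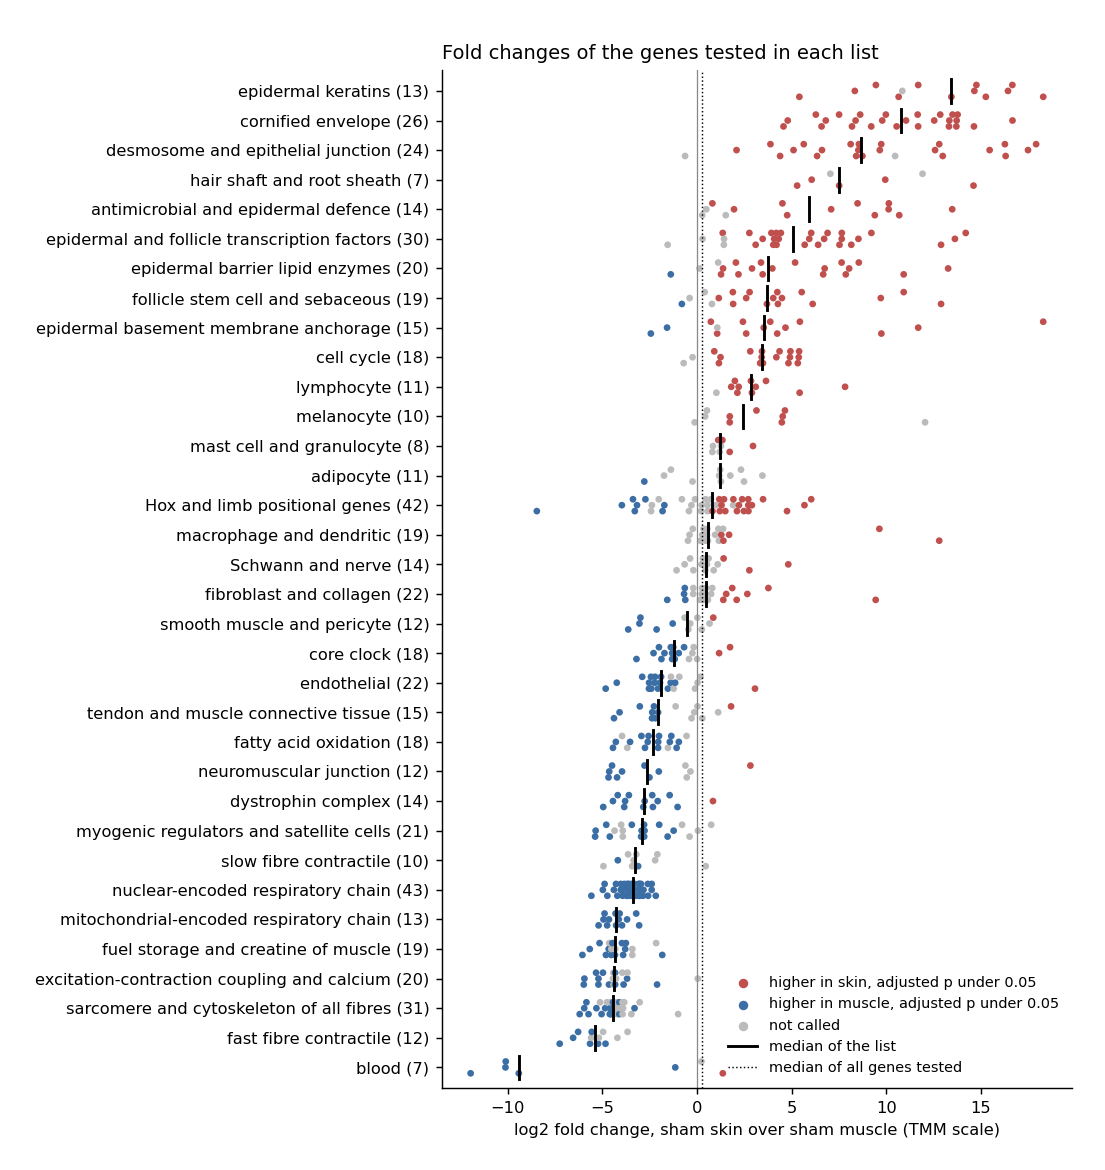
Log2 fold change (x axis, TMM scale) of every tested gene in 34 lists (y axis, number tested in brackets). Red and blue points are called, grey points are not, and the black bar is the list's median; keratins sit at a median of 13.44 and fast-fibre genes at -5.39, beside 0.28 for all genes tested, and the medians of the clock, endothelial, smooth muscle, tendon and fatty acid lists turn above 0 when library totals are the scale.

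Epidermal keratins were among the lists that differed most. Of 14 listed, 13 were tested and 12 were higher in skin, with a median log2 of 13.44. Krt5, the basal-layer keratin that pairs with Krt14, stood at 1846, 2199.6 and 2842 scaled TPM in skin and had no count in any muscle library. Skin was thus at least 5208-fold higher, taking 3 counts over the muscle group as the floor (log2 18.29 ± 0.75, which rests on a prior count and is no bound, adjusted p = 3.66e-05). Krt14 itself read 931, 1091 and 2002 in skin against 0, 0 and 1.18 in muscle (log2 11.69 ± 0.81, adjusted p = 4.75e-05). Both basal keratins were highest in skin library 3 and lowest in skin library 1.

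The suprabasal keratins were as prominent. Krt10, which replaces the basal pair as cells move outward, stood at 2784, 2533 and 3739.6 in skin and 6.37, 4.89 and 14.6 in muscle (log2 9.45 ± 0.45, adjusted p = 1.46e-05). Its partner Krt1 read 526, 483 and 652 in skin and 0 in every muscle library, at least 1419-fold apart. Krt77, a close relative of Krt1, reached 2687, 2429 and 3728 in skin and exceeded Krt1 in each library. Krt15, a basal and follicle keratin, varied little among the skin libraries, at 1051, 988 and 1028, and was at least 1666-fold higher than in muscle. Krt17, a keratin of follicles and of injured epidermis, read 187, 585 and 462 in skin and 0, 0 and 0 in muscle, and skin library 1 was again the lowest. Krt2 was the tested member that did not pass, at 2.05, 28.1 and 2.63 in skin and 0 in muscle (adjusted p = 0.105).

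Genes of the cornified envelope, the protein shell of the dead outer layer, were all higher in skin where they were tested, 26 of 26 among 28 listed, with a median log2 of 10.80. Krtdap, a secreted keratinocyte protein, was the most abundant of them and of all genes called with at least a 4-fold difference in favour of skin, at 4742, 4446 and 6258 against 4.89, 11.8 and 3.04 in muscle (log2 9.98 ± 0.35, adjusted p = 1.12e-05). Dmkn, the secreted dermokine, read 992, 1095 and 1608 in skin and 0, 1.73 and 0 in muscle (log2 12.54 ± 0.58, adjusted p = 1.46e-05). Flg, whose product filaggrin bundles keratin filaments, stood at 538, 643 and 1954 in skin and 0.442, 0.399 and 0.900 in muscle (log2 8.62 ± 0.77, adjusted p = 1.93e-04). Hrnr, a filaggrin relative, was at least 1673-fold higher in skin (103, 91.5 and 239, and 0 in muscle). For Flg and Hrnr skin library 3 stood well above the other skin libraries, while Krtdap and Dmkn varied less. Lor, a main envelope protein, read 286, 305 and 419.7 in skin, and Lce1m, the highest of the late envelope genes, 426, 511 and 951.

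Envelope, keratin and desmosome genes were higher in skin together, so the 250 bases before their start sites were read from RefSeq (GRCm38.p6). A promoter entry existed for 41 of the 66 genes of those lists, and some have several start sites, which gave 46 promoters. The AP-1 motif TGANTCA, searched on both strands, was in 28.3% of them, in 12.5% of the 48 promoters of contractile genes and in 6.75% of all 32851 promoters. The motif TATAAA was in 26.1%, 18.8% and 12.4% of the same sets. Among promoters of all genes called at least 4-fold higher in skin, TGANTCA was in 9.16% and TATAAA in 10.2%. Shown are the 3 most abundant called members of the lists whose promoter holds TGANTCA, 5′ to 3′ toward the gene, with matches to TGANTCA and TATAAA in capitals. In all 10 motifs were searched, and a match of letters describes the window and says nothing of a factor.
Krtdap, chr7:30787655-30787904, plus strand: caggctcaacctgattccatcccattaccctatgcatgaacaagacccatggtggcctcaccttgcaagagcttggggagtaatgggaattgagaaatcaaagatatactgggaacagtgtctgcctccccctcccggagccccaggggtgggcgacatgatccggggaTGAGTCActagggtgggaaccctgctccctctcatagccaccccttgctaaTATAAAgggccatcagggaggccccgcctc
Dmkn, chr7:30763506-30763755, plus strand: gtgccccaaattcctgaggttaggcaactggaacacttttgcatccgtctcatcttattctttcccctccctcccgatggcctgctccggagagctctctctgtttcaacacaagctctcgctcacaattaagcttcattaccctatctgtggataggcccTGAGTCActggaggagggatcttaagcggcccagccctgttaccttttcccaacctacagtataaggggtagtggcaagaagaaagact
Flg, chr3:93273296-93273545, plus strand: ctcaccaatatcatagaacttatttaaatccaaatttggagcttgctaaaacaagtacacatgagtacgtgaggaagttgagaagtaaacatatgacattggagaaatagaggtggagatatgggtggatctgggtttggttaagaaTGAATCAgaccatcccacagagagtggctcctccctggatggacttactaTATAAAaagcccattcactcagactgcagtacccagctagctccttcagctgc
The nearest match to TGANTCA lies 81, 89 and 103 bases before the start in Krtdap, Dmkn and Flg.

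Desmosomes, the rivets between keratinocytes, followed the keratins: 22 of 24 junction genes were higher in skin, none was higher in muscle, and the median log2 was 8.65. The desmosomal cadherins Dsg1a, Dsc3 and Dsc1 had no count in muscle and were at least 3989-fold, 2964-fold and 1314-fold higher in skin. Dsg1a read 604, 614 and 739 in the skin libraries. Dsc3 varied even less among them, at 552, 567 and 573. Cdh1, the adherens-junction cadherin of epithelia, was at least 1279-fold higher, at 245, 283 and 287. Perp, a desmosome-associated membrane protein, was the most abundant member at 1573, 1806 and 2015 in skin and 3.25, 4.80 and 4.56 in muscle (log2 8.74 ± 0.32, adjusted p = 1.12e-05). Dsp, which ties the junction to keratin, read 869, 1099.5 and 1148 in skin and 0.127, 0 and 0.191 in muscle (log2 12.99 ± 0.76, adjusted p = 2.17e-05). Jup, a plaque protein that other cell types also use, differed far less, at 541, 779 and 970 against 171, 163 and 166 (log2 2.09 ± 0.26, adjusted p = 4.27e-04). Pkp2, a plakophilin that other tissues use, was not called, at 7.45, 6.56 and 4.46 and 13.3, 6.85 and 7.19.

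Genes that anchor the epidermis to its basement membrane split. Of 15 tested, 12 were higher in skin and 2 in muscle, with a median log2 of 3.53. Col17a1, a transmembrane collagen of hemidesmosomes, stood at 750.4, 746 and 1032 in skin and 0.906, 1.45 and 3.09 in muscle (log2 9.74 ± 0.48, adjusted p = 1.46e-05). Plec and Dst encode cytolinkers that serve both hemidesmosomes and muscle fibres, and these were the members higher in muscle. Plec read 271, 220.2 and 319 in skin and 2119.6, 2407 and 1837 in muscle (log2 -2.43 ± 0.41, adjusted p = 0.00188), and Dst 589.7, 379 and 421 and 787, 754 and 696 (log2 -1.58 ± 0.42, adjusted p = 0.0138). With log2(TPM + 1) in place of counts, relative to the median gene, Dst turned to 0.19 (adjusted p = 0.361).

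Transcription factors of the epidermis and follicle were higher in skin for 26 of the 30 tested, with a median log2 of 5.06, and none was higher in muscle. Gata3, a regulator of epidermal and follicle differentiation, stood at 543, 782 and 929.6 in skin against 0.316, 3.04 and 3.61 in muscle (log2 8.15 ± 0.49, adjusted p = 2.63e-05). Trp63, the master regulator of stratified epithelia, read 333, 365 and 355 in skin and 28.7, 24.6 and 35.8 in muscle (log2 4.19 ± 0.26, adjusted p = 2.63e-05). Klf4, needed for barrier formation, read 255, 305 and 320.1 and 26.9, 27.2 and 31.2 (log2 3.10 ± 0.19, adjusted p = 2.63e-05). Trp63 and Klf4 varied little among the skin libraries. Grhl1 and Grhl3, grainyhead factors of the barrier, were higher in skin by log2 5.93 ± 0.29 and 8.53 ± 0.54.

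Barrier lipid enzymes were higher in skin for 17 of 20 genes and higher in muscle for 1, with a median log2 of 3.73. Elovl4, which makes the very long fatty acids of barrier ceramides, read 530.3, 366 and 371 in skin and 0, 0 and 0.637 in muscle (log2 10.92 ± 0.63, adjusted p = 2.45e-05). Abca12, the lipid transporter of lamellar granules, read 149.9, 147 and 207 and 0.575, 2.90 and 0.641 (log2 7.86 ± 0.50, adjusted p = 3.34e-05). Elovl1, another elongase, stood at 149, 205 and 311 against 25.3, 19.4 and 23.0 (log2 3.38 ± 0.32, adjusted p = 1.36e-04). The exception was the acid sphingomyelinase Smpd1, at 30.8, 43.0 and 43.9 in skin and 109, 111 and 87.3 in muscle (log2 -1.38 ± 0.18, adjusted p = 6.04e-04).

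Of 19 follicle stem cell and sebaceous genes tested, 15 were higher in skin and 1 was higher in muscle (median log2 3.70). Scd1, the sebaceous and adipose fatty acid desaturase, was spread widely among the skin libraries, at 3746, 1676 and 556, against 584, 88.6 and 358 in muscle (log2 2.60 ± 0.79, adjusted p = 0.0246). The stem cell receptor Lgr5 read 46.9, 55.3 and 37.8 in skin and 3.98, 4.00 and 3.89 in muscle (log2 3.70 ± 0.20, adjusted p = 1.81e-05). Cd34, which marks bulge cells but also vessels and fibroblasts, was not called, at 423, 209.8 and 109 and 77.2, 97.0 and 133 (adjusted p = 0.0968). Nfatc1, which keeps bulge stem cells at rest, was the member higher in muscle (48.5, 46.2 and 49.7 against 86.2, 76.9 and 81.4, log2 -0.80 ± 0.12, adjusted p = 0.00102). Relative to the median gene, Nfatc1 read 0.05 with log2(TPM + 1).

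Hair shaft genes did not behave as 1 group, because the skin libraries differed in them by orders of magnitude. Krt71, a keratin of the inner root sheath, stood at 0.213, 2154 and 319.9 scaled TPM in skin libraries 1 to 3 and at 0 in muscle. Krtap8-1, a keratin-associated protein of the shaft, read 0, 1746 and 39.4 in the same libraries. Skin library 2 was the highest and skin library 1 the lowest for both. The 27 listed genes found in the files took 0.00707, 1.59 and 0.156% of the TPM in the skin libraries. Only 7 passed the filter on low counts, and 5 of them were called, all in favour of skin.

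**Figure D2:**
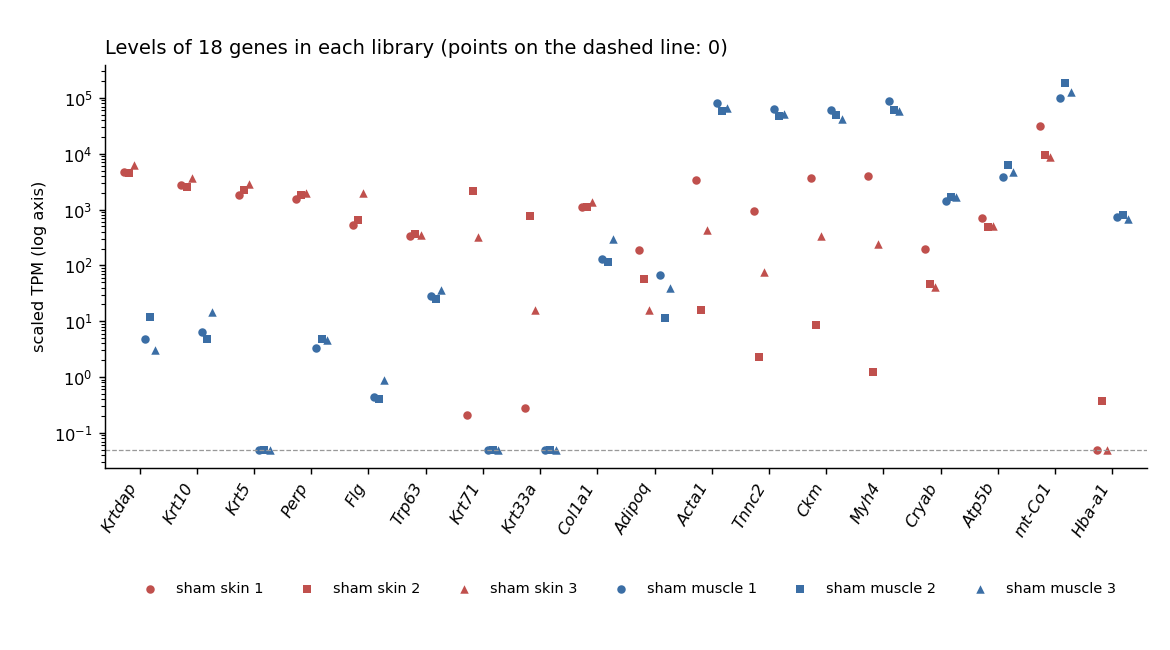
Scaled TPM (y axis, log scale) of 18 genes (x axis) in the 3 sham skin (red) and 3 sham muscle (blue) libraries, with values of 0 drawn on the dashed line. Krtdap, Krt10 and Krt5 lie close together in skin, Krt71 and Krt33a spread over 3 or more powers of 10 among the skin libraries, and Acta1, Tnnc2, Ckm and Myh4 spread in skin from library 1 (high) to library 2 (low) but not in muscle.

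Of 10 melanocyte genes tested, 6 were higher in skin, but 1 of 10 by data name. Dct, a melanin-synthesis enzyme, read 10.5, 102 and 72.6 in skin and 4.35, 3.89 and 5.05 in muscle (log2 3.15 ± 0.78, adjusted p = 0.0151), and Tyrp1, another, 1.36, 77.4 and 25.03 and 0 (adjusted p = 0.0926). Both were lowest in skin library 1 and highest in skin library 2. Mitf, the lineage regulator that other cells also express, was not called, at 48.8, 49.1 and 27.8 and 46.8, 57.0 and 49.4 (log2 -0.12 ± 0.24, adjusted p = 0.679).

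Sarcomere genes were higher in muscle, but by amounts that depended on which skin library was read. Across the 43 fast-fibre and shared sarcomere genes, the median level in skin libraries 1, 2 and 3 was 11.4%, 0.0649% and 1.10% of the muscle mean. Skin library 1 thus held contractile RNA far above the level of the other skin libraries, and where that RNA came from was not tested. Its share of mitochondrial RNA was also the highest of the skin libraries, and its hair shaft share the lowest. The spread widened the standard errors, so counts of called genes in the muscle lists below are given also without that library where they differ. On library totals these 2 lists kept their direction by median (-3.07 and -2.11), but 3 of the 43 genes were called higher in muscle and 1 was called higher in skin.

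All 12 fast-fibre genes were lower in every skin library than in any muscle library, and 7 were called (median log2 -5.39). Without skin library 1, 10 were called. Tnnc2, the calcium-binding troponin of fast fibres, stood at 959.7, 2.28 and 77.1 scaled TPM in skin and 63495, 47459.7 and 51323 in muscle (log2 -7.25 ± 2.08, adjusted p = 0.0220). Tnnt3, the fast troponin T, read 3261, 7.02 and 195 and 87748, 68288 and 70771 (log2 -6.54 ± 2.05, adjusted p = 0.0279). Myh4, the heavy chain of the fastest fibres, read 4016, 1.22 and 246 in skin and 86261, 59456 and 58291 in muscle and was not called (adjusted p = 0.0887). Within muscle, Myh4 made up 98.1, 84.7 and 90.8% of the scaled TPM of the sarcomeric heavy chain genes and Myh1 1.26, 14.6 and 6.04%. Myh4 thus led the heavy chains in every muscle library, and most of all in library 1.

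Of 10 slow-fibre genes 2 were called (5 without skin library 1), both higher in muscle, beside 26.2% of all genes tested. On library totals none was called higher in muscle and 1 was called higher in skin. The 2 called genes were Tnnt1 (log2 -4.18 ± 1.07, adjusted p = 0.0193) and Tnni1 (log2 -3.11 ± 0.89, adjusted p = 0.0239). Here the muscle libraries differed among themselves. Myl2, the slow regulatory light chain, read 204, 19.4 and 759 in muscle and 40.2, 7.07 and 13.3 in skin (adjusted p = 0.0505), and muscle library 3 was the highest. Mybpc1, a slow-type myosin-binding protein, read 626, 2398 and 1188 in muscle and 384, 4.58 and 43.1 in skin (adjusted p = 0.133). Tpm3, a slow tropomyosin gene whose other transcripts serve non-muscle cells, was the list's most abundant gene in skin, at 294, 286 and 271 against 183, 153 and 572 (log2 0.46 ± 0.45, adjusted p = 0.404).

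Of 31 sarcomere and cytoskeleton genes of all fibres, 16 were called, all higher in muscle (median log2 -4.43), and 30 without skin library 1. Acta1, skeletal actin, read 3362, 15.6 and 429 in skin and 82549.6, 57403 and 65079.5 in muscle (log2 -5.73 ± 1.80, adjusted p = 0.0277). Ttn, the giant spring of the sarcomere, read 2399, 10.7 and 189 and 23103, 20734 and 17691 (adjusted p = 0.158), and Tpm2, a tropomyosin, 2786, 35.8 and 191 and 9449, 17485 and 9432 (adjusted p = 0.0843). Neither passed the test, and in both skin library 1 stood far above skin library 2. Cryab, a small heat shock protein of the Z-disc that skin also makes, had a narrower spread, at 200.1, 45.7 and 40.2 and 1406, 1673 and 1712 (log2 -4.10 ± 0.71, adjusted p = 0.00381). Trim63, a ubiquitin ligase of muscle protein turnover, read 73.5, 7.07 and 17.5 and 728, 747 and 737 (log2 -4.59 ± 1.06, adjusted p = 0.0135).

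The promoters of the contractile genes were read in the same way, 48 promoters of 40 among 53 genes. The CArG box, the serum response factor motif, was in 14.6% of them, in 2.17% of the keratin, envelope and desmosome promoters and in 1.47% of all promoters. The MEF2 core (CTA and TAG with any 4 bases between them) was in 14.6%, 2.17% and 3.20%, and the E-box CAGCTG, which myogenic factors bind, in 35.4%, 13.0% and 13.0%. Among promoters of all genes called at least 4-fold higher in muscle, the CArG box was in 1.80%, the MEF2 core in 4.49% and CAGCTG in 14.6%. Shown are the 3 most abundant called members whose promoter holds a CArG box, with matches to it, to the MEF2 core, to CAGCTG and to TATAAA in capitals.
Acta1, chr8:123894776-123895025, minus strand: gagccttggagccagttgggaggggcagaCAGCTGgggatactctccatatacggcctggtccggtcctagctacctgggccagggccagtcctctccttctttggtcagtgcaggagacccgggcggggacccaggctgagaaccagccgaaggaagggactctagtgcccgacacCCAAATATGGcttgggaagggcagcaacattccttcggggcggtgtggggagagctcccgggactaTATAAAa
Ldb3, chr14:34588682-34588931, minus strand: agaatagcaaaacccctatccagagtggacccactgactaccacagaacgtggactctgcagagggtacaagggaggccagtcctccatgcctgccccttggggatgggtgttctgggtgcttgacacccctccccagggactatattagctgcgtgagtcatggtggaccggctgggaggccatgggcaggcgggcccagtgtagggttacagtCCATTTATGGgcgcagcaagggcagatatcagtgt
Actc1, chr2:114052876-114053125, minus strand: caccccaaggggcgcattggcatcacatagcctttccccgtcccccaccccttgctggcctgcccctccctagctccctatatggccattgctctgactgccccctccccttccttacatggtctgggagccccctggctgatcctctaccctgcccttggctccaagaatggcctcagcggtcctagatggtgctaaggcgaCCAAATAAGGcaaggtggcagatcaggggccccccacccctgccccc
The CArG box lies 73, 35 and 47 bases before the start in Acta1, Ldb3 and Actc1, and Actc1, cardiac actin, read 279.6, 88.7 and 119 in muscle and 6.30, 0.0837 and 0.331 in skin (log2 -6.19 ± 1.48, adjusted p = 0.0150).

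Calcium release genes gave 12 calls of 20, all higher in muscle (median log2 -4.39), 19 of 20 without skin library 1, and on library totals 7, with 1 higher in skin. Ryr1, the release channel, read 407, 7.12 and 40.2 in skin and 3998, 3244 and 2709 in muscle (log2 -4.65 ± 1.54, adjusted p = 0.0333). Atp2a1, the fast calcium pump, read 6976, 12.5 and 418 and 42709, 36625 and 30212 (adjusted p = 0.0819), and Casq1, the calcium store protein, 2078, 5.51 and 102 and 7638, 5444 and 5433 (adjusted p = 0.140). The pump of slow fibres and of non-muscle cells, Atp2a2, was not called (179.5, 224 and 164 and 92.4, 55.2 and 308, log2 0.04 ± 0.67, adjusted p = 0.961). Mrln, a small peptide that restrains the pump, differed by log2 -5.94 ± 1.05 (adjusted p = 0.00469).

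The dystrophin complex, which links the fibre's skeleton to the matrix, was called for all 14 genes, 13 of them higher in muscle (median log2 -2.80), while on library totals 2 were called higher in muscle and 3 in skin. Dag1, the matrix receptor at its core, read 134, 124 and 114 in skin and 361, 303 and 275 in muscle (log2 -1.44 ± 0.18, adjusted p = 4.44e-04). Sgca, a sarcoglycan restricted to muscle, read 48.2, 0.386 and 4.43 and 620, 587 and 603 (log2 -4.95 ± 1.47, adjusted p = 0.0309). Utrn, the dystrophin relative of other tissues, was the member higher in skin, at 182, 167 and 180.2 against 99.0, 93.5 and 88.0 (log2 0.85 ± 0.16, adjusted p = 0.00305). No library of skin overlapped one of muscle for Dag1 or Utrn.

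Myogenic regulators gave 13 calls of 21 tested, all higher in muscle (median log2 -2.92), while on library totals none was and 6 were called higher in skin. Without skin library 1, 16 of 20 were called. Mef2c, the MEF2 factor of mature fibres, read 213, 21.9 and 30.1 in skin and 1220.4, 1121 and 1148 in muscle (log2 -3.44 ± 0.96, adjusted p = 0.0211), and Mef2d 136, 95.7 and 106 and 446, 477 and 466 (log2 -1.99 ± 0.18, adjusted p = 9.44e-05). Mef2a was not called, at 314, 208 and 223 and 275, 254 and 210.1 (log2 0.05 ± 0.23, adjusted p = 0.848). Myod1, the founding myogenic factor, read 3.13, 0 and 0.438 and 37.7, 44.0 and 60.9 (log2 -5.35 ± 1.31, adjusted p = 0.0162), while Pax7, the satellite cell marker, stood at 6.21, 5.84 and 3.34 in muscle and 0.976, 0 and 0.0327 in skin and was not called (adjusted p = 0.0514).

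At the neuromuscular junction 8 of 12 genes were higher in muscle and 1 was higher in skin (median log2 -2.64), and on library totals 4 were called each way. Without skin library 1, 8 of 11 were higher in muscle and 1 in skin. Chrne, the adult acetylcholine receptor subunit, read 1.92, 0.604 and 1.74 in skin and 42.4, 37.7 and 13.8 in muscle (log2 -4.67 ± 0.62, adjusted p = 6.18e-04), and Colq, which anchors acetylcholinesterase, 0.737, 0.411 and 0.392 and 13.1, 16.8 and 8.43 (log2 -4.63 ± 0.42, adjusted p = 1.07e-04). Lrp4, the agrin receptor of the junction, was the gene higher in skin, at 115, 112 and 132 against 22.7, 17.4 and 11.9 (log2 2.82 ± 0.24, adjusted p = 7.92e-05). Ache, the acetylcholinesterase gene itself, was not called, at 46.5, 30.9 and 57.5 in skin and 117, 85.7 and 40.0 in muscle.

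Fuel genes of muscle gave 13 calls of 19, all higher in muscle (median log2 -4.33), 19 of 19 without skin library 1 and 4 of 19 on library totals. Ckm, muscle creatine kinase, read 3628, 8.66 and 339.6 in skin and 60128, 48535 and 42241 in muscle (log2 -5.66 ± 1.74, adjusted p = 0.0254). Eno3, the muscle enolase, read 853, 9.97 and 85.8 and 13051, 10336 and 10547 (log2 -5.14 ± 1.62, adjusted p = 0.0317). Pygm, glycogen phosphorylase, read 1688, 6.13 and 140.2 and 16634, 11329 and 11406 and was not called (adjusted p = 0.0586). Mb, myoglobin, varied within muscle, at 1470, 8806 and 4676, with library 1 the lowest.

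All 43 listed nuclear-encoded genes of the respiratory chain were called higher in muscle, at log2 -5.57 to -2.17 with a median of -3.36, and all 43 without skin library 1 too. Cox6a1 and Cox8a, forms of cytochrome oxidase subunits in most tissues, are not on that list and were not called (log2 -0.29, adjusted p = 0.497, and log2 -0.33, adjusted p = 0.289). On library totals 33 of the 43 were called, all higher in muscle. Atp5b, a catalytic subunit of ATP synthase, read 695, 493 and 515 in skin and 3899, 6250.3 and 4676 in muscle (log2 -3.24 ± 0.38, adjusted p = 3.53e-04). Cox6c and Cox6b1, cytochrome oxidase subunits, differed by log2 -3.68 ± 0.34 and -2.58 ± 0.28. Cox6a2, the subunit form of heart and muscle, lay among the 8 largest differences in favour of muscle (125, 0.637 and 14.6 against 3961, 5745 and 5362, log2 -6.71 ± 1.83, adjusted p = 0.0236). Muscle library 2 was the highest of all libraries for Atp5b, Cox6c, Cox6b1 and Cox6a2, while for Cox8a muscle library 3 was.

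The 13 protein genes of the mitochondrial genome were all called higher in muscle as well (median log2 -4.27). They took 14.04, 4.29 and 3.96% of the TPM in skin and 13.1, 21.1 and 16.0% in muscle, so skin library 1 overlapped the muscle libraries (exact permutation p = 0.2 over 3 against 3 libraries, two-sided, where 0.1 is the smallest that the design allows). On the TMM scale, mt-Atp6, an ATP synthase subunit, read 10779.6, 2875 and 2581 in skin and 123767, 223919 and 161357 in muscle (log2 -4.94 ± 1.04, adjusted p = 0.00512). mt-Co1, the catalytic core of cytochrome oxidase, read 30962, 9618 and 8665 and 101146, 182299 and 128710 (log2 -3.05 ± 1.13, adjusted p = 0.0490). The nuclear pseudogene Gm29216 matches the last 483 bases of mt-Co1 with 1 mismatch, so the counting can split their reads. It stood at 17.0, 3.80 and 225 in skin and 59240, 106702 and 84494 in muscle.

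Fatty acid oxidation genes were higher in muscle for 14 of 18 (median log2 -2.30, which turned to 0.12 on library totals alone), and for 17 of 18 without skin library 1. Acadm, an acyl-CoA dehydrogenase, read 293, 113 and 103 and 602, 1037 and 849 (log2 -2.75 ± 0.41, adjusted p = 0.00129), and Acsl1, which activates fatty acids, 259, 145 and 168 and 265, 522 and 329 (log2 -1.07 ± 0.33, adjusted p = 0.0245). Lpl, the lipase of adipose and muscle capillaries, spread widely in skin, at 586, 148 and 50.9 against 215, 564 and 463, and was not called (adjusted p = 0.634).

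The calls of adipocyte genes depended on the setting. None of 11 tested was higher in skin and 1 was higher in muscle, while on library totals 8 and 0 were, by data name 4 and 3, and with DESeq2 3 and 2 of 12. The gene higher in muscle was Pnpla2, a lipase that other tissues use too (log2 -2.78 ± 0.43, adjusted p = 0.00168). Cfd, adipsin, read 689, 207 and 62.4 in skin and 216, 48.7 and 159.9 in muscle, Plin1, the lipid droplet coat, 265, 87.3 and 21.0 and 46.6, 6.55 and 13.3, and Fabp4, shared with endothelium, 307, 129 and 38.0 and 635, 692 and 509. In skin, library 1 was the highest and library 3 the lowest for all 3 genes, none of which was called. The list held 0.192, 0.0806 and 0.0293% of the TPM in the skin libraries.

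Of 22 fibroblast and collagen genes, 7 were higher in skin and 4 in muscle (median log2 0.47) beside 32.4 and 26.2% of all genes tested, while on library totals all 22 were called higher in skin (median 2.90). Col1a1, a chain of type I collagen, read 1119, 1128 and 1353 in skin against 131, 116 and 301 in muscle (log2 2.66 ± 0.46, adjusted p = 0.00199). Col3a1 differed by log2 1.55 ± 0.37. The 3 chains of type VI collagen, a microfibril around muscle fibres, were slightly higher in muscle, Col6a1 by log2 -0.62 ± 0.18, Col6a2 by -0.68 ± 0.20 and Col6a3 by -0.64 ± 0.17. On library totals all 3 turned to higher in skin, and with log2(TPM + 1), relative to the median gene, they turned to 0.24, 0.13 and 0.18. Crabp1, a retinoid-binding protein of dermal fibroblasts, read 13.5, 18.1 and 15.8 in skin and 0 in muscle.

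Tendon genes were higher in muscle for 8 of 15 and higher in skin for 1 (median log2 -2.05, turning to 0.37 on library totals alone). Thbs4, a matrix protein of the muscle-tendon junction, read 3.62, 3.30 and 16.8 in skin and 128, 91.6 and 263 in muscle (log2 -4.38 ± 0.87, adjusted p = 0.00767), and Fmod, a collagen-binding proteoglycan of tendon, 5.42, 3.76 and 19.1 and 159, 52.0 and 285 (log2 -4.09 ± 0.93, adjusted p = 0.0126). For both genes muscle library 3 was the highest and muscle library 2 the lowest of the muscle libraries. Dpp4, a surface peptidase of fibroblast progenitors, was the gene higher in skin (log2 1.80 ± 0.46, adjusted p = 0.0141), and Pi16, another progenitor marker, was not called (79.3, 39.9 and 29.9 and 27.9, 53.1 and 55.4).

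Endothelial genes were higher in muscle for 15 of 22 and higher in skin for 1 (median log2 -1.92, turning to 0.51 on library totals alone). Egfl7, a secreted endothelial factor, read 95.4, 63.7 and 47.3 in skin and 205, 431 and 204 in muscle (log2 -2.21 ± 0.33, adjusted p = 0.00116), Aqp1, a water channel of capillaries, 86.0, 40.8 and 40.6 and 243, 419 and 244 (log2 -2.43 ± 0.38, adjusted p = 0.00166), and Pecam1, a junction protein of all endothelium, 62.9, 30.6 and 28.0 and 69.3, 111 and 108 (log2 -1.39 ± 0.39, adjusted p = 0.0202). Gpihbp1, which carries lipoprotein lipase to the capillary lumen, differed by log2 -4.23 ± 0.63, and Tcf15, a factor of fatty-acid-handling capillaries, by -4.82 ± 0.68. Sele, the inducible selectin, was the gene higher in skin, at 4.73, 2.39 and 1.25 against 1.04, 0 and 0 (log2 3.07 ± 1.09, adjusted p = 0.0438).

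Of 12 smooth muscle and pericyte genes, 5 were higher in muscle and 1 in skin (median log2 -0.55, turning to 1.93 on library totals alone). The genes of the list differed. Acta2, Tagln and Smtn, contractile genes of smooth muscle, were not called, at log2 -0.45, -0.65 and -0.35. The pericyte genes Rgs5 and Abcc9 were higher in muscle (log2 -3.04 ± 0.69, adjusted p = 0.0108 for Rgs5, log2 -3.63 ± 1.05, adjusted p = 0.0282 for Abcc9), and the pericyte proteoglycan Cspg4, which follicle cells also express, was higher in skin (log2 0.86 ± 0.23, adjusted p = 0.0156).

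Among nerve genes 3 of 14 were higher in skin and none in muscle (median log2 0.49), beside 32.4 and 26.2% of all genes tested. On library totals 13 were called higher in skin (median 2.95). Egr2, the myelination factor that follicle cells also express, read 67.8, 88.1 and 65.3 in skin and 3.23, 3.09 and 1.51 in muscle (log2 4.83 ± 0.36, adjusted p = 5.00e-05). The myelin genes Pmp22 and Mbp were not called, at 111, 76.7 and 54.1 and 76.7, 62.6 and 51.2 for Pmp22 and 52.1, 42.9 and 50.4 and 53.3, 38.5 and 14.1 for Mbp. Muscle library 3 was the lowest library for both.

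Of 11 lymphocyte genes tested 10 were higher in skin, and of 8 mast cell and granulocyte genes 4 were. Of 19 macrophage and dendritic genes 5 were higher in skin, no larger a share than the 32.4% of all genes tested, and none in muscle, while on library totals all 19 were. Cd3e, a T cell receptor chain, read 24.8, 21.0 and 19.2 in skin and 2.71, 0.360 and 4.15 in muscle (log2 3.11 ± 0.45, adjusted p = 8.65e-04), and Ptprc, the pan-leukocyte CD45, 69.8, 53.1 and 41.9 and 7.40, 9.77 and 18.4 (log2 2.14 ± 0.34, adjusted p = 0.00146). Cd207, langerin of epidermal Langerhans cells, read 6.29, 8.23 and 10.99 and 0 (log2 9.64 ± 1.23, adjusted p = 0.00153). Cd74 and H2-Eb1, of antigen presentation, differed by log2 1.40 ± 0.44 and 1.70 ± 0.37, while H2-Ab1 was not called (adjusted p = 0.0695). The macrophage genes C1qa, C1qb and C1qc were not called, at log2 -0.22, 0.28 and -0.39. Mcpt4, a mast cell protease, was not called (30.7, 22.6 and 10.7 and 11.4, 10.9 and 14.5).

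Epidermal defence genes were higher in skin for 11 of 14 tested (median log2 5.93). Defb6, a beta-defensin, read 148, 126 and 158 in skin and 0 in muscle (log2 10.69 ± 0.86, adjusted p = 2.81e-04). Ccl27a, the keratinocyte chemokine that draws T cells, read 236, 225 and 399 and 67.2, 51.1 and 61.8 (log2 1.96 ± 0.27, adjusted p = 7.13e-04), and Skint3, an epidermal T cell ligand relative, 90.6, 70.7 and 109 and 0.278, 0.743 and 1.04 (log2 7.09 ± 0.35, adjusted p = 1.46e-05). Cxcl14, made in both epidermis and other tissues, differed by log2 0.82 ± 0.29 (adjusted p = 0.0412).

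Hox genes, which record position along the body and limb, differed by cluster. All 9 tested Hoxb genes were higher in skin, and their summed level was 110.2, 184 and 211 scaled TPM in skin against 23.4, 23.1 and 18.96 in muscle. Hoxb8 read 13.0, 21.1 and 25.3 in skin and 0.391, 0.347 and 0.366 in muscle (log2 5.68 ± 0.46, adjusted p = 6.97e-05). In the other clusters the called genes that were higher in muscle were late, 5′ ones: Hoxa10 and Hoxa13, Hoxc9 to Hoxc11, and Hoxd10. On library totals Hoxa10 and Hoxc9 turned to higher in skin and the other 4 did not. Hoxc10, a gene of the hindlimb, read 31.2, 4.93 and 5.79 in skin and 244, 209 and 205 in muscle (log2 -3.97 ± 0.84, adjusted p = 0.00944), and Hoxa13, of the most distal limb, 0.0642, 0 and 0 and 9.51, 9.60 and 7.68 (log2 -8.46 ± 0.70, adjusted p = 7.49e-05). Hoxc13 was the exception among them, higher in skin at 5.88, 86.5 and 37.5 against 0, 1.12 and 0.787 (log2 6.04 ± 1.49, adjusted p = 0.0167), and it is also a regulator of hair keratins. It followed the hair shaft genes, lowest in skin library 1 and highest in skin library 2.

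**Figure D3:**
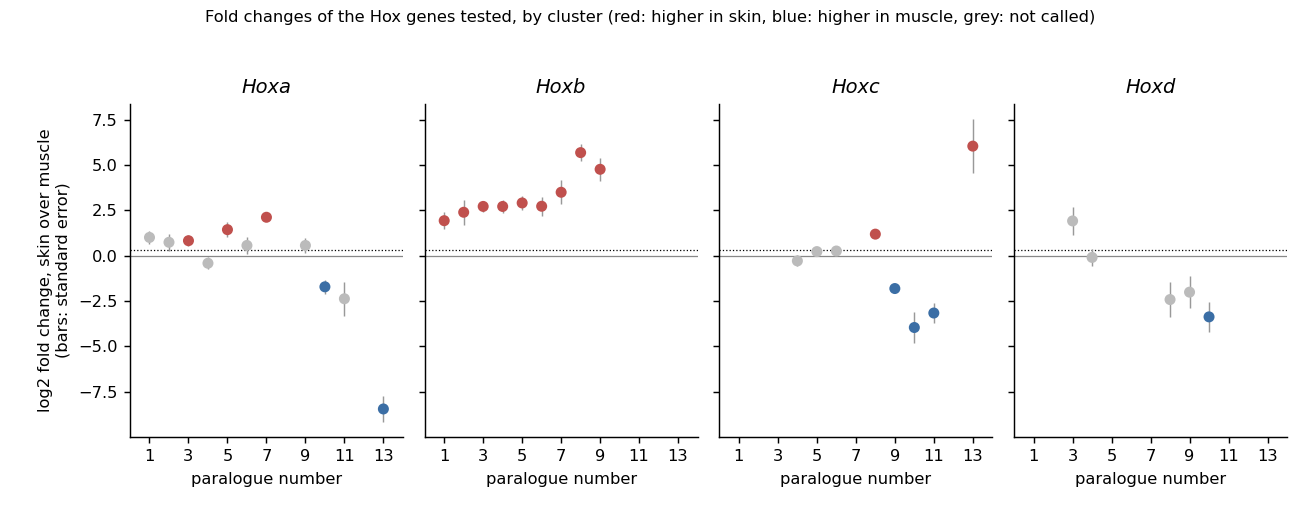
Log2 fold change, skin over muscle, with its approximate standard error (y axis) of the tested Hox genes by paralogue number (x axis). The 4 clusters are drawn apart, and red and blue points are called. All 9 Hoxb genes lie above 0, while the tested numbers from 10 up of Hoxa, 9 to 11 of Hoxc and 8 to 10 of Hoxd lie below 0; on library totals alone 32 of the list's 42 genes were called higher in skin and 1 in muscle.

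Over the whole list of 42 Hox and limb genes tested, 19 were higher in skin and 8 in muscle, beside 32.4 and 26.2% of all genes tested. Hoxa7 was the list's most abundant called Hox gene in skin (78.8, 86.6 and 105 against 18.7, 26.3 and 17.8, log2 2.11 ± 0.15, adjusted p = 4.65e-05), and Hoxa10 was higher in muscle (19.6, 11.1 and 7.18 against 47.9, 35.0 and 35.5, log2 -1.72 ± 0.37, adjusted p = 0.00583). Hoxc6 was not called (51.6, 49.5 and 65.2 and 53.5, 48.8 and 53.9). Tbx15, a factor of fast glycolytic fibres and of dermis, was higher in muscle (86.8, 18.3 and 18.9 against 454, 442 and 331, log2 -3.28 ± 0.76, adjusted p = 0.0122), and En1 too, with a wide spread within muscle (15.3, 1.40 and 12.5, adjusted p = 0.0132). In the Hoxd cluster, muscle library 2 stood apart at 22.7 summed scaled TPM beside 213 and 173 in muscle libraries 1 and 3, and at 25.6 to 47.5 in skin.

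Cell cycle genes were higher in skin for 16 of 18, none was higher in muscle, and the median log2 was 3.46. Mki67, a marker of cycling cells, read 28.9, 90.0 and 93.4 in skin and 0.875, 0.866 and 1.55 in muscle (log2 5.38 ± 0.52, adjusted p = 2.38e-04), and Top2a, which untangles replicated DNA, 38.7, 102 and 118 and 2.23, 4.00 and 10.7 (log2 4.94 ± 0.63, adjusted p = 8.80e-04). Pcna, a replication clamp that resting cells also hold, differed less, at 83.3, 121 and 99.1 and 37.3, 47.3 and 48.0 (log2 0.92 ± 0.22, adjusted p = 0.00961). Skin library 1, with few hair shaft transcripts, had the lowest Mki67 and Top2a of the skin libraries.

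Clock genes were higher in muscle for 12 of 18 and higher in skin for 2 (median log2 -1.21, turning to 1.28 on library totals alone). Nr1d1, the clock repressor, read 217, 126 and 103 in skin and 575, 445 and 513 in muscle (log2 -1.88 ± 0.31, adjusted p = 0.00171), and Dbp, a direct clock output, 103, 57.8 and 38.8 and 253, 173 and 211 (log2 -1.71 ± 0.34, adjusted p = 0.00465). Nr1d2 and Tef, further outputs, were higher in muscle by log2 -0.96 ± 0.29 and -1.38 ± 0.24, and with log2(TPM + 1), relative to the median gene, Tef turned to 0.18. Npas2 and Hlf were the genes higher in skin (log2 1.75 ± 0.41, adjusted p = 0.00867 for Npas2, log2 1.17 ± 0.20, adjusted p = 0.00198 for Hlf), and the core activators Clock and Arntl were not called, at log2 0.01 and -0.17. The labels give no time of day for the tissues.

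Muscle and other tissues often use different genes for the same product, and 46 such pairs were compared. The muscle form was called higher in muscle in 35 pairs, never higher in skin, and was not called in 11. The other form was called higher in skin in 25 pairs and higher in muscle in 5. In 20 pairs the forms were called in opposite directions, and in 4 pairs both were higher in muscle. Of all genes tested, 32.4% were called higher in skin and 26.2% higher in muscle. Rpl3l, the ribosomal protein of mature fibres, made up 15.2, 0.226 and 1.33% of the Rpl3l and Rpl3 sum in skin and 91.9, 91.4 and 89.1% in muscle (Rpl3l log2 -5.28 ± 1.58, adjusted p = 0.0320; Rpl3 log2 2.48 ± 0.20, adjusted p = 6.93e-05). Acta1 made up 60.5, 0.619 and 16.6% of Acta1 and Actb in skin and 98.8, 98.3 and 98.3% in muscle, where Actb, cytoplasmic actin, was the form higher in skin (log2 1.21 ± 0.27, adjusted p = 0.00703). Slc25a4, the muscle ADP/ATP carrier, held 66.0, 9.41 and 22.9% in skin and 98.4, 98.8 and 98.1% in muscle beside Slc25a5. Skin library 1 had the highest muscle-form share of the skin libraries in all 3 pairs.

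Glucose handling changed form at several steps. The insulin-responsive transporter Slc2a4 held 74.7, 13.6 and 17.7% of its sum with the widespread Slc2a1 in skin and 97.9, 98.9 and 99.3% in muscle. Among the glycolytic enzymes Pfkm held 82.9, 11.7 and 30.3% beside Pfkp in skin and 99.7, 99.7 and 99.7% in muscle, and Pgam2 81.4, 6.72 and 25.9% beside Pgam1 and 99.7, 99.5 and 99.3% in muscle. Ckm held 99.6, 30.6 and 93.7% beside the brain-type Ckb in skin and all but a trace in muscle, and Aldoa dominated Aldoc in every library, at 96.3% at the least. Skin library 2 had the lowest muscle-form share in each of these pairs. The pairs Adssl1 and Adss, Tmod4 and Tmod3, Phka1 and Phka2, Phkg1 and Phkg2, and Ndrg2 and Ndrg1 were opposite too.

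**Figure D4:**
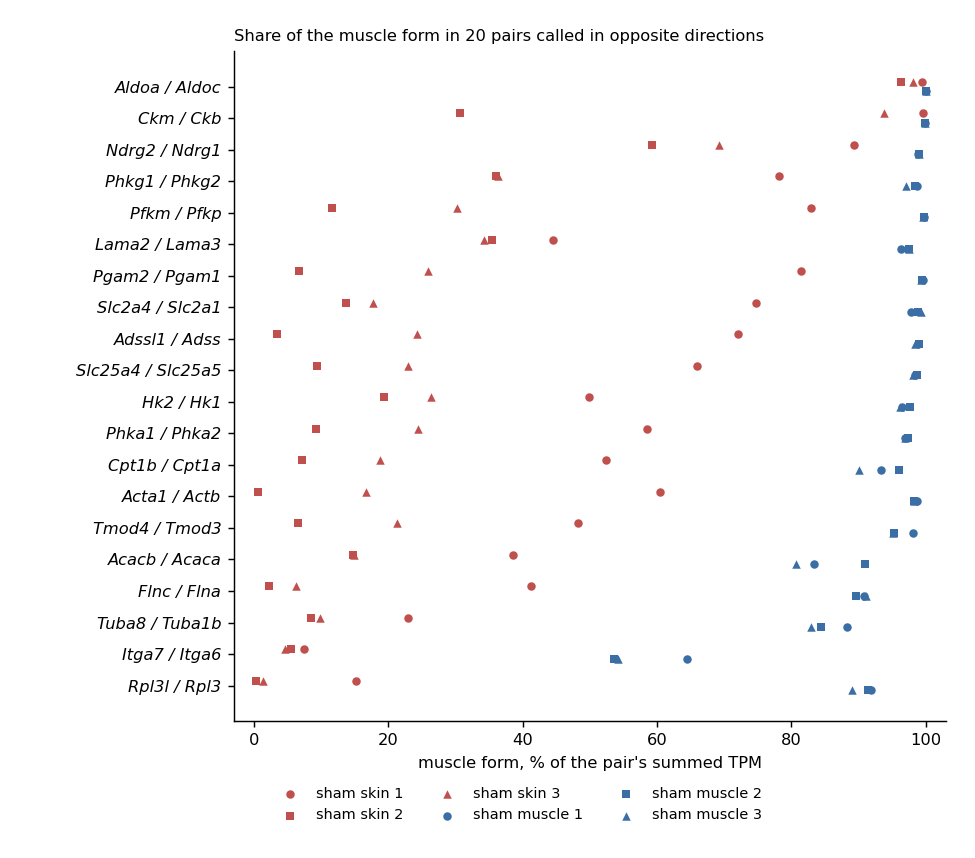
Muscle form as a percentage of the summed TPM of both forms (x axis) in each sham library for the 20 pairs called in opposite directions (y axis). The pairs were chosen by calls in these same libraries, so the separation of the tissues describes them and supports nothing further. The muscle libraries (blue) lie above every skin library (red) in each pair, and skin library 1 (circles) is the highest of the skin libraries. Rpl3l, for example, stands at 15.2, 0.226 and 1.33% in skin and at 91.9, 91.4 and 89.1% in muscle.

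Transcripts of the same gene were also used differently. Of 9782 genes with at least 2 testable transcripts, 3024 were called (30.9%) by edgeR's test of transcript usage with Simes p-values, and 103 (1.05%) switched, meaning that the gene had at least 5 TPM in both tissues, 1 transcript led in all skin libraries, another led in all muscle libraries and a share moved by at least 50 percentage points. Without skin library 1, 2 or 3 the called genes numbered 931, 456 and 558, of 6252, 6191 and 6197 tested. The switches numbered 102, 37 and 56 in the same order. How kallisto divides reads between similar transcripts has an error that the files used here do not hold, so these p-values are too small.

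Of 81 genes listed for known muscle or epidermal transcripts, 79 were tested, 49 were called, 7 differed by at least 50 points and 4 switched. Naca, a ribosome-associated chaperone with a long muscle form, used the long Naca-202 (6745 bases) for 22.9, 4.10 and 6.34% of its TPM in skin and 85.2, 85.4 and 81.2% in muscle (adjusted p = 6.44e-05). Capzb, an actin-capping subunit, used Capzb-203 for 0% in every skin library and 66.6, 71.8 and 58.6% in muscle (adjusted p = 1.11e-10). Lmna, the nuclear lamin gene, used Lmna-203 for 2.28, 10.6 and 8.00% in skin and 68.3, 65.7 and 59.6% in muscle (adjusted p = 1.19e-04). Mtmr3, a phosphoinositide phosphatase, used Mtmr3-202 for at most 0.002% in skin and for 77.9, 55.5 and 50.7% in muscle (adjusted p = 1.83e-04). In none of the 4, which were picked as switches in these same libraries, did a skin library overlap a muscle library.

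Slc25a3, the mitochondrial phosphate carrier, used Slc25a3-206 for 47.6, 0.874 and 9.61% in skin and 92.9, 91.8 and 93.7% in muscle (adjusted p = 4.66e-04). Pdlim5, a Z-disc adaptor, used Pdlim5-203 for 49.2, 0.288 and 11.6% and 84.5, 87.7 and 84.8% (adjusted p = 0.00274). Tpm1 used Tpm1-205 for 42.2, 9.98 and 44.3% and 96.6, 97.4 and 97.4% (adjusted p = 6.29e-05). In Slc25a3 and Pdlim5 skin library 1, the one with the most contractile RNA, lay nearest to muscle. Transcript use also differed in genes that were not higher in muscle in total. Trp63 used Trp63-201 for 38.8, 34.8 and 40.3% in skin and 0% in muscle, where Trp63-207 took 48.6, 31.8 and 50.3% (adjusted p = 2.67e-08). Tpm3 used Tpm3-205 for 2.52, 0.925 and 1.21% in skin and 43.2, 29.0 and 73.3% in muscle (adjusted p = 7.46e-07), and muscle library 3 was again the highest.

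**Figure D5:**
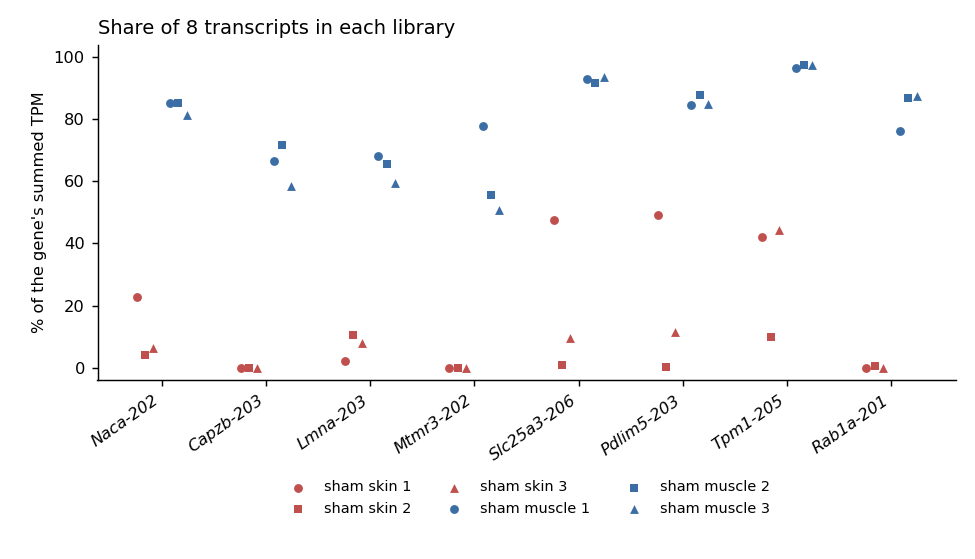
Share of the gene's summed TPM (y axis, percent) held by 8 transcripts (x axis) in each sham library. Their genes were chosen by calls and share differences in these same libraries, so the separation of the tissues supports nothing further. Muscle libraries (blue) lie above every skin library (red) for all 8, and skin library 1 (circles) lies nearest to muscle for Naca-202, Slc25a3-206 and Pdlim5-203.

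The largest switches lay outside that list. Rab1a, a transport GTPase, used Rab1a-206 for 87.0, 83.1 and 84.4% in skin and 0% in muscle, where Rab1a-201 took 76.1, 87.0 and 87.6% (adjusted p = 2.81e-05). Lars2, Slc15a5, Park7, Dtnbp1, Fdft1, Mrps18c and Nudt8 completed the 8 largest. The leading skin transcript of Dtnbp1, Mrps18c, Nudt8 and Lars2 is annotated as a retained intron. Over all 103 switches the skin lead was of a non-coding type in 41, of which 27 were retained introns, and the muscle lead in 7, of which 3 were. Retained-intron shares were taken over transcripts of protein-coding genes, leaving out mitochondrial-encoded genes, Lars2 and Gm20594. Of that TPM they held 17.6, 18.8 and 19.1% in skin and 5.73, 6.40 and 6.39% in muscle. Their part in the switches was not tested. With protein-coding transcripts alone 1073 genes were called and 64 switched.

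The gene with the most counts in muscle was Lars2. This gene, the mitochondrial leucyl-tRNA synthetase (chr9:123366927-123462666, GRCm38, plus strand), took 41.9, 35.1 and 38.9% of all estimated counts in the muscle libraries and 0.0122, 0.0119 and 0.0148% in skin (log2 -14.00 ± 3.98, adjusted p = 0.0188). Nearly all of it in muscle came from 1 transcript, Lars2-209, of the nonsense-mediated-decay type, at a mean of 99.99% of the gene's TPM, while in skin the retained-intron transcript Lars2-205 led with 85.3%. Gm20594, a predicted gene on chromosome 6, took 16.1, 20.3 and 19.6% of the TPM in muscle and 0.00836, 0.00492 and 0.00334% in skin (log2 -14.62 ± 2.06, adjusted p = 7.90e-04). Together with all pseudogenes these genes held 58.0, 54.2 and 57.0% of the TPM in muscle and 5.38, 5.77 and 5.88% in skin. Leaving them out before library sizes were computed gave 9976 called genes.

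Gm20594 resembles mitochondrial ribosomal RNA. Its transcript matched mt-Rnr2, the large ribosomal RNA of mitochondria, over 435 aligned bases at 88.5% identity, with 41 mismatches and 9 gap positions, and Lars2-209 matched neither mitochondrial ribosomal RNA. The stretch below holds 97 aligned bases with 4 mismatches, in capitals, and shows how close the sequences are. The genes matched to the annotation held no ribosomal RNA type, so mt-Rnr2 had no counts of its own. Which reads were counted to Gm20594 was not tested. All libraries were made with 1 kit that removes ribosomal RNA, and how completely it was removed in each batch was not tested.
Gm20594, chr6:79818251-79818347, plus strand: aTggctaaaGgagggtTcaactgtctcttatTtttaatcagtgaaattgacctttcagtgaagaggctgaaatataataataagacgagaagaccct
mt-Rnr2, chrM:2070-2166, plus strand: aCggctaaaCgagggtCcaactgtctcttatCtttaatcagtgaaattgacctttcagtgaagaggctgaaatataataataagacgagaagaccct

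Haemoglobin transcripts were nearly absent from skin. Hba-a1, an alpha globin, read 0, 0.379 and 0 in skin and 721, 791 and 676 in muscle (log2 -11.95 ± 0.59, adjusted p = 1.92e-05), Hba-a2 2.37, 0.463 and 0.316 and 1068, 1379 and 1021 (log2 -10.11 ± 0.66, adjusted p = 5.91e-05), and Hbb-bs, a beta globin, 3.82, 0.236 and 0 and 871, 1006 and 833 (log2 -9.41 ± 1.16, adjusted p = 0.00119). Hba-a1 and Hba-a2 are near-identical genes whose reads the counting may divide. Other genes of red cells differed far less than the globins or the other way. Alas2, the first enzyme of haem synthesis in red cells, read 47.4, 26.5 and 24.7 in skin and 63.6, 55.0 and 74.2 in muscle (log2 -1.14 ± 0.32, adjusted p = 0.0169), and Epb42, a red cell membrane protein, was higher in skin (12.01, 8.45 and 8.20 against 4.02, 3.35 and 5.09, log2 1.37 ± 0.27, adjusted p = 0.00408). The depletion kit that the labels name for all libraries is sold to remove globin transcripts along with ribosomal RNA, and whether removal differed between the batches was not tested.

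Among the most abundant genes of skin with at least a 4-fold difference, Eef1a1, a translation elongation factor, read 2630, 3464 and 3661 in skin and 657, 573 and 724 in muscle (log2 2.33 ± 0.30, adjusted p = 5.16e-04), and Ptma, a chromatin-associated acidic protein, 1065, 1559 and 1673 and 222, 246 and 219 (log2 2.59 ± 0.23, adjusted p = 9.96e-05). Both are expressed in most tissues, and both were lowest in skin library 1.

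Read by data name instead of by record, the contrast called 11270 genes. Higher in skin were 12 of 13 keratins, 25 of 26 envelope genes, 21 of 24 junction genes, and 22 of 30 transcription factors, with 1 junction gene and 1 transcription factor higher in muscle. Called higher in muscle were 43 of 43 nuclear respiratory chain genes and 12 of 31 sarcomere genes. Of the slow-fibre genes none was called higher in muscle and 1 higher in skin, of the hair shaft genes 1 of 7 was called, and of the macrophage and dendritic genes 12 of 20 were higher in skin. In the 3 libraries for which record and name match, 9 of 13 keratins, 22 of 28 envelope genes and 16 of 43 nuclear respiratory chain genes were called, but none of the fast-fibre or sarcomere genes, whose medians were -5.06 and -3.90.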

How the data were processed

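RNA of 10 to 15 mg of frozen hindlimb skin or muscle was made into ribosomal-RNA-depleted stranded total RNA libraries, per the labels' protocols. Per the submitters' processing notes the authors used kallisto 0.5.0 and mm10, and the deposited tables hold estimated counts (kallisto's expected counts, not whole numbers) and TPM per transcript, both made by the authors. Of 116116 transcripts, 114322 (98.5%) matched a GENCODE mouse annotation (M21, GRCm38), and counts and TPM were summed to 35579 genes. Unmatched transcripts held 0.873 to 1.85% of the counts. Counts, rounded to whole numbers, were tested with edgeR 4.0.16 (filterByExpr, TMM, robust quasi-likelihood test) in R 4.3.3, in the 3 sham skin and 3 sham muscle libraries alone, without a batch term. Transcripts with at least 1 CPM in 3 libraries were tested for use with diffSpliceDGE. Shares of RNA were compared by exact permutation, two-sided. No libraries were duplicates of one another: for pairs of a group, chi-square per degree of freedom was 15.2 to 364.

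Genes named in the text are, in each direction, the 8 with the largest fold among called protein-coding genes of at least 20 TPM without overlap, the 8 most abundant with a log2 fold of at least 2, the 3 most abundant members of each list and called members that go against its majority, the 12 leading opposite pairs, the 8 largest switches, called listed genes with a share difference of at least 50 points, and Hox genes above 1 TPM. Others were named after their values were seen. Members and lists were chosen with earlier results of these data known. On simulated counts of 17416 genes with 200 changed, 11.8% of changes of 1 on the log2 scale were recovered, 89.4% of those of 2 and 100% of those of 4. For transcript use (8363 genes, 200 changed) 100% were recovered with 18 false calls, where only transcripts far apart in level were swapped. The simulation gave all genes and transcripts the same spread, so these shares do not give the power in the real libraries. There Myh4, for example, was not called at log2 -5.59. Promoters and their motifs came from RefSeq tables, and sequence matches from blastn 2.17.0. Alternatives were other scalings (RLE, upper quartile, library totals), DESeq2 1.42.0, limma 3.58.1 on log2(TPM + 0.1) and log2(TPM + 1), filters, all 20 libraries, data names, the replicate block, each library left out, and coding transcripts alone.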

Additional observations from a re-analysis of the deposited data

How the results depend on the processing

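Of the 194 called genes that the naming rule picked, 186 never changed sign relative to the median gene, 50 stayed called in every setting and 81 lost the call only in the 3 libraries for which record and data name match. The number of genes called was 16148 on library totals, 16681 and 16709 with limma on log2(TPM + 0.1) and log2(TPM + 1), where the median gene moved to 3.12 and 2.36, 1380 in those 3 libraries, and 8669 to 10780 with 1 library left out. Genes called for transcript use numbered 1911 among transcripts of at least 5 CPM, 1073 for coding transcripts and 456 to 2847 with 1 library left out; switches numbered 64 for coding transcripts, 301 and 10 at share differences of 25 and 75 points, and 37 to 117 with 1 library left out, the lowest without skin library 2. With the replicate block 9497 genes were called (10279 by data name), 1684 genes for transcript use and 88 switches. Same-numbered libraries did not deviate together (r = 0.016, -0.030 and 0.026 over 8615 genes; not every library correlated best with its own number), so the numbers were not taken as pairs. As a share of estimated counts instead of TPM, skin minus muscle was -6.20 points for fast-fibre genes, -7.61 for sarcomere genes and -45.5 for Lars2, Gm20594 and pseudogenes. With 1 library left out, differences in TPM share were -5.39 to -4.02 points for fast-fibre genes, -1.87 to -1.25 for sarcomere genes, -12.6 to -7.15 for mitochondrial-encoded genes, 1.07 to 1.43 for keratins, 1.13 to 1.59 for envelope genes, 0.0815 to 0.873 for hair shaft genes and -51.8 to -49.9 for the Lars2 set. With log2(TPM + 1), relative to the median gene, these genes turned: Ache 0.024, Acta2 0.30, Col6a1 0.24, Col6a2 0.13, Col6a3 0.18, Dst 0.19, Etv5 0.17, Lmx1b -0.21, Mitf 0.41, Nfatc1 0.048, Sele -0.34, Smtn 0.23, Tagln 0.33, Tcf4 0.62 and Tef 0.18. In the 3 libraries for which record and name match, Acta2 turned to 0.044, Lpl to 0.92, Mitf to 0.14 and Tcf4 to 0.024. Averaged over the sham and irradiated groups of all 20 libraries, Col6a1 turned to 0.31, Col6a2 to 0.22, Col6a3 to 0.53, Mef2a to -0.30 and Tpm3 to -0.20. In the sham contrast fitted over the same 20 libraries no named gene turned. By data name Lpl turned to 0.63 (0.41 with the block), with upper-quartile scaling Mitf to 0.0036, with coding transcripts Mef2a to -0.079 and Mitf to 0.097, and with skin library 2 alone, where the spread comes from the muscle libraries, Hoxc6 to -0.013, Mef2a to -0.27 and Smtn to 0.018. With 1 library left out Cfd ranged from -0.061 to 1.70, Mef2a from -0.20 to 0.18, Mitf from -0.33 to 0.092 and Pi16 from -0.060 to 0.45. The cause of these changes was not tested. Muscle libraries held fewer counts than skin libraries, and skin libraries varied more among themselves (biological coefficient of variation 0.365 against 0.173).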

Other observations

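Of the 20 long noncoding RNAs listed, 2 were found in the files under the listed names. Snhg11 read 23.3, 21.3 and 21.9 in skin and 6.84, 6.42 and 13.9 in muscle (log2 1.23 ± 0.18, adjusted p = 8.56e-04), and Tug1 86.4, 106 and 108 and 55.2, 61.7 and 64.8 (log2 0.84 ± 0.13, adjusted p = 0.00123). The pseudogene Gm28661 is identical to mt-Co2 over 681 aligned bases and stood at 2926, 1060 and 1445 scaled TPM in skin and 47469.8, 127313 and 127477 in muscle. mt-Co2 itself read 6476, 2074 and 1331 in skin and 71142.7, 78548 and 21710 in muscle, and the sum of both genes was 9402, 3134 and 2777 in skin and 118613, 205861 and 149187 in muscle. How reads were divided between these copies was not tested.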
